A study of Drosophila melanogaster with 16 samples.

Results

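The transcripts described here encode the glutamate receptor of the larval neuromuscular junction and a pair of its postsynaptic partners. There were 7 genes, taken by name: the receptor subunit genes GluRIIA, GluRIIB, GluRIIC, GluRIID and GluRIIE, the scaffold gene dlg1 and the adhesion gene Nlg1. All 7 matched an identifier among the 15682 counted genes, and all 7 were among the 11607 that passed the filter on low counts. Their expression was read from RNA sequencing of dissected body-wall muscle of ras1G12V;csk-/- Drosophila larvae. All animals carried GFP-labelled clones in the eye epithelium that express activated Ras and lack Csk, the inhibitor of Src. The clones were made with eyeless-driven FLP and the MARCM system, so muscle was not the tissue targeted for transformation, and no tumour-free muscle was among the libraries. Control-diet (CD) animals were raised on 0.15 M sucrose and sampled at day 8 after egg laying. High-sugar diet (HSD) animals were raised on 1.0 M sucrose and sampled at day 12 (Early), day 14 (Mid) and day 16 (Late). These ages are those of the sample labels, and the study's methods give an earlier day for the Early animals used in muscle staining. Each of the 4 conditions had 4 libraries, each from pooled dissected tissue. Every comparison with CD changes diet and age at once, and these cannot be told apart there, while Late and Early shared the diet and differed in age. The labels do not say whether libraries came from separate cultures, so p-values measure the spread between these libraries, which may be partly technical.

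At the fly neuromuscular junction, motor neurons release glutamate onto ionotropic receptors in the muscle membrane. Each receptor is a tetramer of the essential subunits GluRIIC, GluRIID and GluRIIE with either GluRIIA or GluRIIB, so that A-type and B-type receptors share 3 subunits and compete for them. A-type receptors desensitise slowly and pass larger currents, and B-type receptors desensitise fast. Dlg1, the fly PSD-95 homologue, is a membrane-associated guanylate kinase scaffold that is needed for B-type receptors at the synapse, and Nlg1 is a neuroligin that binds presynaptic neurexin. The receptor subunits are transcribed in muscle nuclei, whereas dlg1 is also used in epithelia and neurons.

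Reads counted on genes came to between 9666672 (CD 3) and 28698585 per library, and no member had fewer than 122 counts in any library. Levels are given as CPM, the share of a library's counts in parts per 1000000, on TMM-scaled library sizes, where TMM is edgeR's correction for differences in RNA composition. The labelled tissue held its defining markers, as 17 of 20 listed sarcomere genes matched a counted identifier and all 17 were detected. No counted identifier matched wupA, Zasp52 or Strn-Mlck, so their levels are not known here. The 17 genes summed to 24900 to 62300 CPM in CD and 71100 to 192000 in Early muscle. Their sums were 17300 to 47300 CPM in Mid and 8450 to 21300 in Late muscle. Markers of other tissues were present too. In CD the 8 counted fat body genes summed to 13100 to 23500 CPM, and in Early muscle to 8700 to 12200. Their sums were 6120 to 13000 CPM in Mid and 5540 to 35500 in Late muscle. In Late libraries 1 to 4 they came to 22100, 9950, 35500 and 5540 CPM, against sarcomere sums of 21300, 11600, 8450 and 19500. Over all libraries, the 8 haemocyte genes summed to 1350 to 4430 CPM and the 6 trachea genes to 494 to 1990. The 14 counted epidermis genes summed to 36100 to 70100 CPM in CD, 65400 to 170000 in Early, 14000 to 49000 in Mid and 7790 to 16200 in Late muscle, with Tb at or near 0 throughout. The 14 presynaptic neuron genes summed to 200 to 264 CPM in CD, 209 to 276 in Early, 296 to 473 in Mid and 295 to 441 in Late muscle. The 8 glia genes summed to 247 to 325, 217 to 284, 275 to 352 and 352 to 462 CPM in the same order. The summed level of 12 testis genes ran from 6.74 to 632 CPM over the libraries, and 6 of 6 salivary gland genes tested fell from Early to Late. The 7 listed salivary gland genes summed to 1380 CPM in Early 2 and 215 CPM in Early 4, but to 0.121 CPM in Early 1 and 0.84 CPM in Early 3, as low as the Late libraries (0.259 to 4.88 CPM).

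Of the 5 subunit genes, 4 had their highest mean level at Early (GluRIIB had it in CD), and all 5 had their lowest mean at Late. At Early, GluRIIC alone of the 7 genes passed the test against CD, and it rose. At Mid no member passed. At Late, GluRIIA, GluRIIC and GluRIIE fell below CD, and against Early, GluRIIA, GluRIIC, GluRIID and GluRIIE fell. Neither dlg1 nor Nlg1 passed in any comparison.

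**Figure D1:**
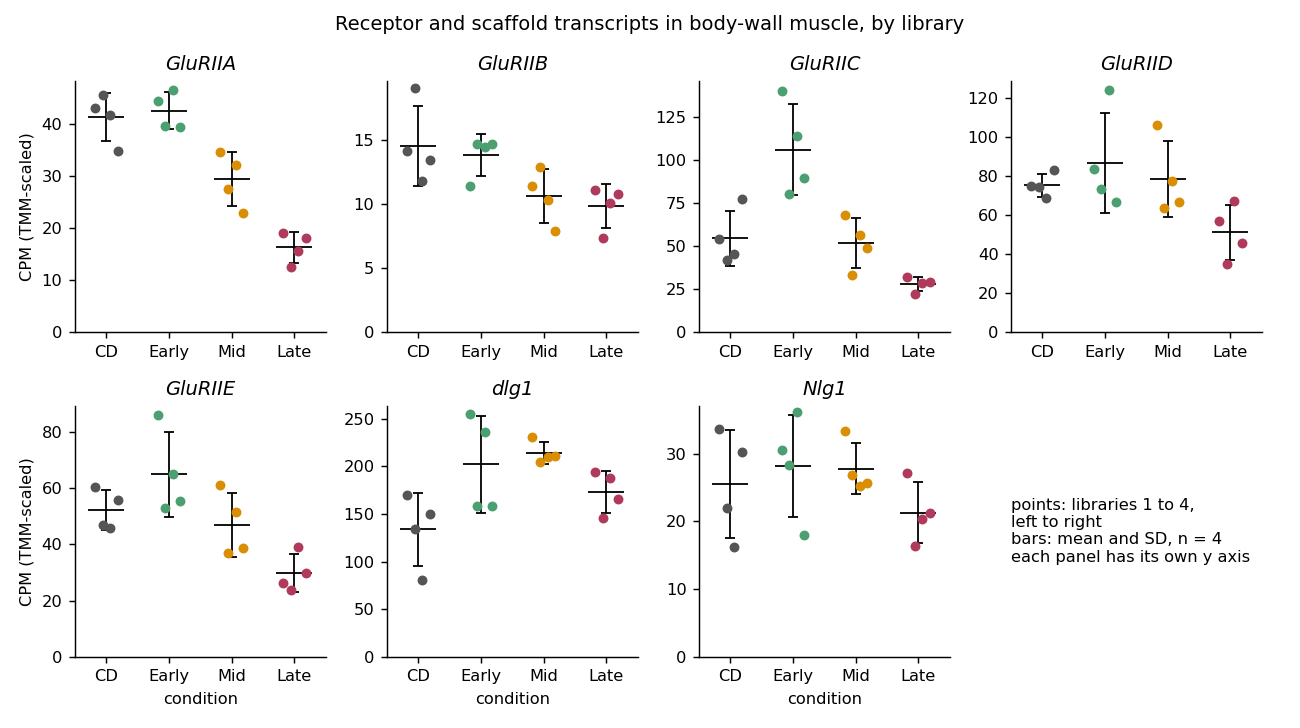
Level of the 7 genes in each library, as CPM on TMM-scaled library sizes on the y axis (from 0, with a separate scale for each gene) and the 4 conditions on the x axis. Points are libraries 1 to 4 from left to right, with bars for mean and SD (n = 4). For all 5 GluRII subunits the 4 Late points lie below the 4 CD points, whereas those of dlg1 and Nlg1 overlap with CD.

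The test was edgeR's quasi-likelihood test over all 16 libraries, with p-values adjusted over all 11607 genes and a threshold of 0.05. Against CD, 1 of the 7 members passed at Early, where 9.14% of all genes passed, and 0 passed at Mid, where 6.32% of all genes passed. At an unadjusted p under 0.05, 3 members lay past the threshold at Mid (GluRIIA, GluRIIB and dlg1). The share of all genes past that looser cut was not taken. DESeq2 called 2 of these members at Mid, where it called 1781 of the 11607 genes. At Late 3 members passed, against 21.7% of all genes (7.70% in the lower direction). Between Late and Early 4 members passed, against 20.2% of all genes (10.1% in the lower direction). The median log2 fold change of the 7 genes was 0.21 in Early, -0.08 in Mid and -0.57 in Late muscle against CD, and -0.76 for Late against Early. Over all genes tested, the corresponding medians were -0.01, -0.06, -0.08 and -0.05. The comparisons of Late with CD and of Late with Early share the Late libraries, and the 3 comparisons with CD share the CD libraries. In such bulk tissue, fewer muscle cells in the preparation and less receptor RNA per muscle cell cannot be told apart.

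Complete separation of the groups was common among the subunits. All 4 Late libraries lay below all 4 CD libraries for 5 of 5 subunits, where 8.99% of all genes were so separated in that direction. Late lay fully below Early for 4 of 5 subunits (11.8% of all genes). At Early, GluRIIC was the only member fully above CD (9.16% of all genes). At Mid, GluRIIA was fully below CD (6.27% of all genes) and dlg1 fully above it (10.3% of all genes).

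**Figure D2:**
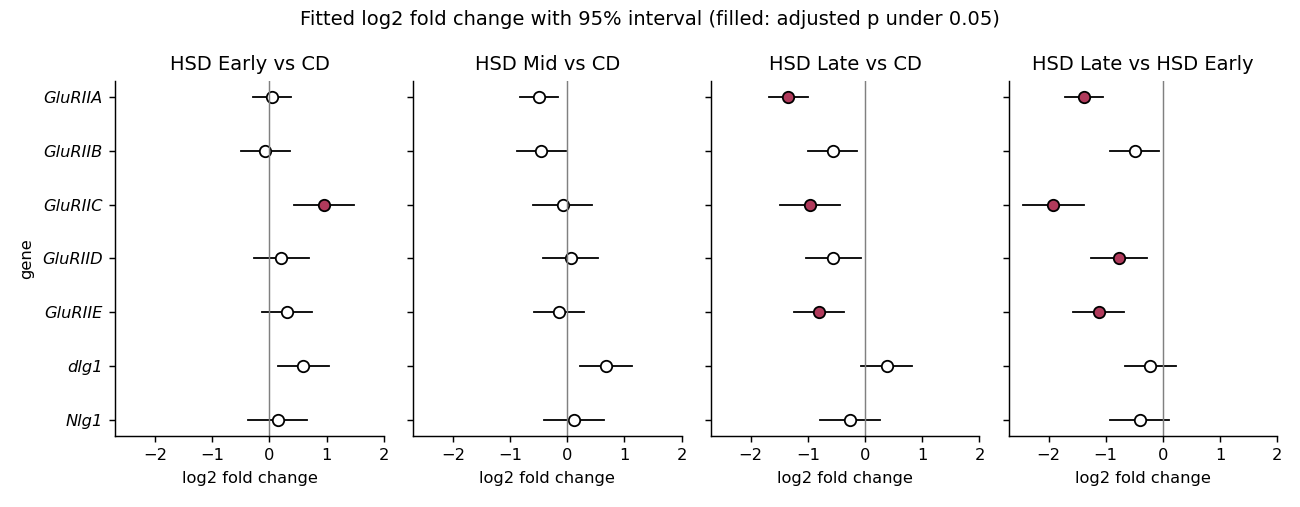
Fitted log2 fold change on the x axis for each of the 7 genes on the y axis, in 1 panel for each comparison. Lines are 95% intervals derived from the quasi-likelihood test statistic. Filled points have an adjusted p under 0.05. They are GluRIIC at Early, none at Mid, GluRIIA, GluRIIC and GluRIIE at Late, and GluRIIA, GluRIIC, GluRIID and GluRIIE for Late against Early.

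GluRIIA (FBgn0004620), the subunit that defines A-type receptors, had the fall with the smallest p at Late. It was at 43.1, 45.7, 41.8 and 34.9 CPM in CD libraries 1 to 4, and at 44.5, 39.6, 46.6 and 39.5 CPM at Early. At Mid it was at 34.7, 27.6, 32.1 and 23.0 CPM, and at Late at 19.1, 12.6, 15.6 and 18.1 CPM. CD and Early overlapped, every Mid library lay below every CD library, and every Late library lay below every Mid library. The means were 41.4 ± 4.64 CPM (SD, n = 4) in CD, 42.6 ± 3.55 in Early, 29.4 ± 5.16 in Mid and 16.3 ± 2.91 in Late muscle. GluRIIA fell at Late, with a log2 fold change of -1.34 against CD (SE 0.156, edgeR adjusted p = 0.00021) and of -1.38 against Early (SE 0.156, edgeR adjusted p = 0.000557). Both calls were kept under all 24 alternative settings, with adjusted p up to 0.00515 and 0.00491. At Mid its log2 fold change of -0.50 against CD missed the threshold (SE 0.154, edgeR adjusted p = 0.0655, unadjusted p = 0.00594) and passed under 3 of 24 settings. At Early the log2 fold change was 0.04, with a 95% interval from -0.29 to 0.37, and its sign turned with the scaling (-0.05 with upper-quartile normalization).

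GluRIIB (FBgn0020429), the alternative subunit of B-type receptors, was the least abundant of the 5 per length and passed in no comparison. It was at 14.1, 19.0, 11.8 and 13.4 CPM in CD and at 11.4, 14.7, 14.4 and 14.7 CPM at Early. The Mid libraries held 11.4, 12.9, 10.3 and 7.9 CPM and the Late libraries 11.1, 7.38, 10.1 and 10.8 CPM. Every Late value was under every CD and Early value, but the gap was narrow, with 11.1 CPM as the highest at Late and 11.4 CPM as the lowest at Early. The log2 fold change at Late was -0.57 against CD (SE 0.200, edgeR adjusted p = 0.0565) and -0.49 against Early (SE 0.200, edgeR adjusted p = 0.0997), and neither passed. With the 95% interval from -0.99 to -0.14 at Late against CD, the data did not settle its size. GluRIIB passed at Late against CD under 4 of 24 settings: DESeq2 size factors, upper-quartile normalization, a minimum mean of 10 CPM and the DESeq2 test.

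Because GluRIIA and GluRIIB compete for the same partners, their ratio was also taken within each library, where the scaling of libraries cancels. There were 3.06, 2.40, 3.56 and 2.61 GluRIIA counts per GluRIIB count in CD and 3.89, 2.69, 3.23 and 2.68 at Early. At Mid the ratios were 3.04, 2.14, 3.13 and 2.91, and at Late 1.73, 1.71, 1.55 and 1.67. The 4 Late libraries lay below the 12 others and close to each other, with a mean of 1.66 ± 0.0795 (SD, n = 4) against 2.91 ± 0.513 in CD, 3.12 ± 0.575 at Early and 2.80 ± 0.453 at Mid. The mean log2 ratio differed by -0.79 between Late and CD and by -0.89 between Late and Early, lower in 4 of 4 Late libraries in both comparisons. Each gave p = 0.0286 in a two-sided exact permutation test, the smallest p that 4 libraries against 4 allow, and 0.0571 after Benjamini-Hochberg adjustment over 4 comparisons, which misses the threshold. Early and Mid ratios overlapped with CD (differences of 0.10 and -0.05, exact permutation p = 0.571 and 0.8). Both genes lie in tandem on the same strand of chromosome arm 2L, 347 bases apart in the later annotation, and GluRIIA shares 66 exonic bases with CG14017, which had at most 62 counts in any library.

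**Figure D3:**
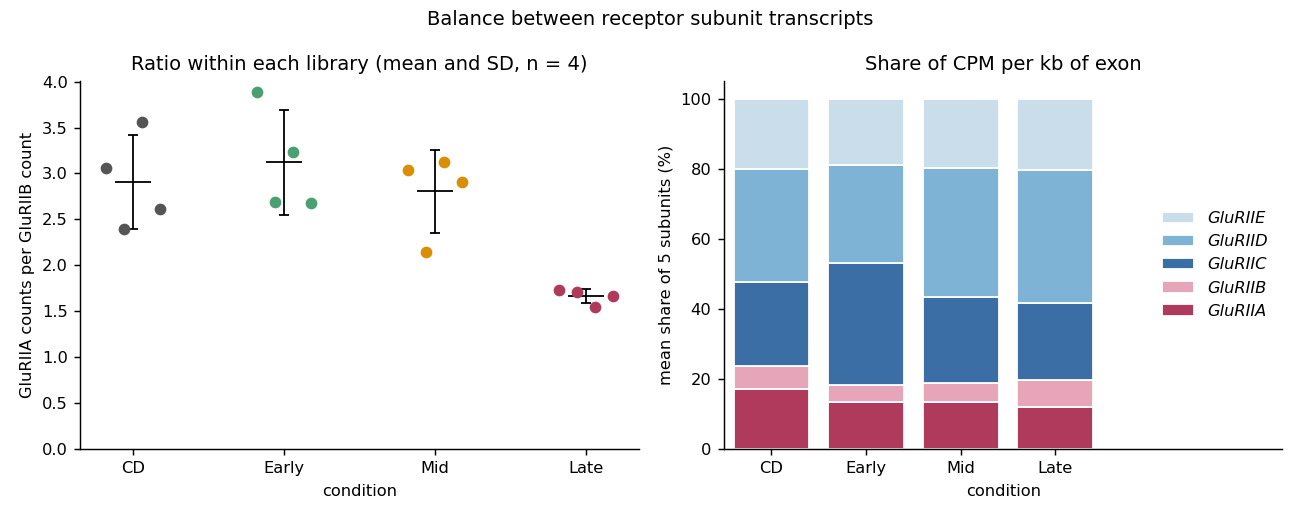
Left, GluRIIA counts per GluRIIB count on the y axis for each library of the 4 conditions on the x axis, with mean and SD (n = 4). The 4 Late libraries lie between 1.55 and 1.73 and all others at 2.14 or above. Right, mean share of each subunit in the sum of the 5, in percent of CPM per kb of exon, with GluRIIC at 35.0% at Early and 21.9% at Late.

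GluRIIC (FBgn0046113), an essential subunit of both receptor types, rose at Early and had the largest difference of the 5 subunits between Early and Late. It was at 54.1, 41.7, 45.3 and 77.2 CPM in CD and at 140.0, 80.5, 114 and 89.7 CPM at Early. At Mid it was at 68.0, 33.1, 56.3 and 48.9 CPM, and at Late at 32.0, 22.1, 28.4 and 29.4 CPM. Early lay above CD, Mid overlapped with CD, and Late lay below every other library. The means were 54.5 ± 16.0 CPM (SD, n = 4) in CD, 106 ± 26.6 in Early, 51.6 ± 14.6 in Mid and 28.0 ± 4.21 in Late muscle. Against CD, GluRIIC rose at Early, with a log2 fold change of 0.96 (SE 0.244, edgeR adjusted p = 0.0268). It fell at Late, with a log2 fold change of -0.96 against CD (SE 0.244, edgeR adjusted p = 0.0115) and of -1.92 against Early (SE 0.250, edgeR adjusted p = 0.00061). The call of the rise at Early held under 14 of 24 settings. It was lost in the 8-library fit (edgeR adjusted p = 0.0766) and without any 1 of 9 libraries (CD 1, 2 or 3, Early 1, 3 or 4, Late 2, 3 or 4), with edgeR adjusted p from 0.0504 to 0.121. Without single libraries the log2 fold change stayed between 0.77 (without Early 1) and 1.12 (without CD 4), and it was 0.94 without any of these 3 Late libraries, which are outside the comparison. The fall against CD was lost only without Late 2 (edgeR adjusted p = 0.0533), and that against Early was kept under all 24 settings.

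GluRIID (FBgn0028422) was the most abundant subunit transcript per length in CD, Mid and Late. It was at 74.9, 74.1, 68.6 and 82.7 CPM in CD and at 83.7, 73.2, 124 and 66.5 CPM at Early. The Mid libraries held 106, 63.6, 77.3 and 66.7 CPM and the Late libraries 56.8, 34.7, 67.3 and 45.6 CPM. CD, Early and Mid overlapped, while all Late libraries lay below all CD libraries and 1 Late library (67.3 CPM) lay above the lowest Early library (66.5 CPM). GluRIID fell from Early to Late, with a log2 fold change of -0.76 (SE 0.228, edgeR adjusted p = 0.0284). That call was lost in the 8-library fit and without Early 1, Early 3, Late 2 or Late 4, with adjusted p up to 0.107. Against CD the log2 fold change at Late was -0.56 (SE 0.227, edgeR adjusted p = 0.0965), which missed the threshold and passed under 6 of 24 settings, among them the fit with the replicate number as a block.

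GluRIIE (FBgn0051201), the third essential subunit, was at 60.4, 46.7, 45.7 and 55.6 CPM in CD and at 86.1, 52.9, 64.8 and 55.3 CPM at Early. At Mid it was at 60.9, 36.9, 51.4 and 38.6 CPM, and at Late at 26.3, 23.8, 39.2 and 29.7 CPM. Late lay below all CD and Early libraries, but its highest library (39.2 CPM) lay above the lowest 2 at Mid. GluRIIE fell at Late, with a log2 fold change of -0.81 against CD (SE 0.206, edgeR adjusted p = 0.0118) and of -1.12 against Early (SE 0.207, edgeR adjusted p = 0.00202). Both calls were kept under all 24 settings, with adjusted p up to 0.0434 and 0.0109. Its exons overlap with those of GluRIID on the same strand by 122 bases in the later annotation, so reads there cannot be assigned with certainty. They also overlap by 126 bases with Lrrk on the opposite strand, which was at 23.8 ± 2.15 CPM (SD, n = 4) in CD, 18.4 ± 4.77 in Early, 26.0 ± 1.55 in Mid and 27.9 ± 2.24 in Late muscle.

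The scaffold gene dlg1 (FBgn0001624) had a higher mean at each HSD stage than in CD, though no difference passed. It was at 170, 134, 80.7 and 150 CPM in CD and at 255, 158, 236 and 158 CPM at Early. The Mid libraries held 231, 205, 210 and 211 CPM and the Late libraries 194, 146, 188 and 166 CPM. Mid libraries all lay above CD, Early and Late overlapped with CD, and the lowest value was in CD 3, the library with the fewest counts. Against CD its log2 fold change was 0.59 at Early (SE 0.210, edgeR adjusted p = 0.0914), 0.68 at Mid (SE 0.211, edgeR adjusted p = 0.0646) and 0.38 at Late (SE 0.210, edgeR adjusted p = 0.233). The difference at Mid passed under 9 of 24 settings, and without CD 3 it was 0.52 (edgeR adjusted p = 0.115). For Late against Early the log2 fold change was -0.22 with a 95% interval from -0.67 to 0.23.

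Nlg1 (FBgn0051146) was at 33.7, 22.0, 16.2 and 30.3 CPM in CD and at 30.5, 28.4, 36.1 and 18.0 CPM at Early. At Mid it was at 33.3, 26.9, 25.2 and 25.6 CPM, and at Late at 27.1, 16.4, 20.3 and 21.3 CPM. The groups overlapped in every comparison, and Nlg1 passed under none of the 24 settings in any of them. Its log2 fold change at Late was -0.26 against CD (95% interval from -0.78 to 0.25) and -0.41 against Early (from -0.93 to 0.11).

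How the genes varied together over the 16 libraries is given as a description, since these share conditions and library scaling. On log2 CPM, GluRIIE correlated with GluRIIC at r = 0.905, with GluRIIA at 0.854 and with GluRIID at 0.834, and GluRIIB was the subunit least like the others (r from 0.435 with GluRIIC to 0.755 with GluRIIA). The correlation of dlg1 with the subunits lay between -0.172 (GluRIIB) and 0.36 (GluRIID). Nlg1 correlated with GluRIID at 0.70 and with dlg1 at 0.67. Single libraries moved the members together. Late 2 was the lowest of the 4 Late libraries for all 7 genes, Mid 1 was the highest at Mid for 6 of 7, and CD 3 was the lowest in CD for 5 of 7. The sarcomere sum of Late 2 was 11600 CPM, above Late 3 (8450 CPM) and below Late 4 (19500 CPM) and Late 1 (21300 CPM).

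Levels of different genes were compared per kb of exon, with exonic lengths of the later annotation. In CD, GluRIID was at 24.4 ± 1.88 CPM per kb (SD, n = 4), GluRIIC at 18.2 ± 5.31, GluRIIE at 15.1 ± 2.05, GluRIIA at 12.7 ± 1.43 and GluRIIB at 4.93 ± 1.06. GluRIIA and GluRIIB together came to 17.6 ± 2.21 CPM per kb, between GluRIIE and GluRIIC. The libraries of these neighbours overlapped, so the order from GluRIIC to GluRIIE was not resolved. At Early, GluRIIC was on average the highest at 35.2 ± 8.85 CPM per kb, above GluRIID at 28.2 ± 8.30, although their ranges overlapped. At Late, GluRIID was at 16.6 ± 4.56, GluRIIC at 9.31 ± 1.40, GluRIIE at 8.63 ± 1.96, GluRIIA at 5.02 ± 0.894 and GluRIIB at 3.33 ± 0.574 CPM per kb. The sum of the 5 subunits was 75.3 ± 7.15 CPM per kb in CD, 100.0 ± 18.6 in Early, 68.9 ± 15.4 in Mid and 42.9 ± 8.11 in Late muscle. All Late sums (at most 50.9) lay below all others (at least 55.2). dlg1 was at 11.6 ± 3.33 CPM per kb in CD and 15.1 ± 1.89 at Late, and Nlg1 at 4.25 ± 1.32 and 3.55 ± 0.740. Since dlg1 has many isoforms, its per-kb level rests on the union of their exons.

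Shares of the subunit sum shifted with stage. GluRIIC made up 23.8% ± 4.82 (SD, n = 4) of the sum in CD, 35.0% ± 3.60 in Early, 24.7% ± 3.34 in Mid and 21.9% ± 2.22 in Late muscle, and every Early library (at least 32.2%) lay above all others (at most 30.6%). GluRIID made up 32.4% ± 0.994 in CD and 38.2% ± 3.82 at Late, with all Late libraries (at least 34.9%) above all CD libraries (at most 33.4%). The share of GluRIIA was 17.1% ± 3.08 in CD, 13.3% ± 1.44 in Early, 13.3% ± 1.62 in Mid and 11.8% ± 1.65 in Late muscle, with overlap between CD and Late. The share of GluRIIB was 6.60% ± 1.60 in CD, 4.87% ± 1.32 in Early, 5.41% ± 1.69 in Mid and 7.83% ± 0.817 in Late muscle, with every Late library (at least 6.71%) above every Early library (at most 6.02%). GluRIIE held 18.8% to 20.2% on average in all 4 conditions. These shares describe transcripts, were not tested, and one share moves when another does.

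Contractile genes of the same libraries also changed with stage. Of the 17 sarcomere genes, 10 rose at Early against CD, 10 fell at Late and 17 fell from Early to Late. Over all genes, 9.14%, 21.7% and 20.2% passed in either direction in the same order. At Mid 0 passed with edgeR, 0 had an unadjusted p under 0.05 and 0 passed with DESeq2. For Late against Early the median log2 fold change was -2.84, against -1.12 for the 5 subunits. The sarcomere mean over genes, as log2(CPM + 0.5), was 10.43 ± 0.561 (SD, n = 4) in CD, 11.93 ± 0.572 in Early, 10.24 ± 0.626 in Mid and 9.07 ± 0.614 in Late muscle. Over the 16 libraries it correlated with GluRIIC at r = 0.972, with GluRIIE at 0.824, with GluRIIA at 0.77 and with GluRIID at 0.631. The sarcomere mean correlated with Nlg1 at 0.471, with GluRIIB at 0.411 and with dlg1 at 0.257. The part of muscle content, or of epidermis or fat body content, in the changes of the subunits was not tested.

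Relative to the sarcomere genes, all 7 genes had their lowest mean at Early and their highest at Late. On the log2 scale, GluRIIC was at -4.69 ± 0.177 (SD, n = 4) relative to the sarcomere mean in CD, -5.23 ± 0.304 in Early, -4.58 ± 0.219 in Mid and -4.25 ± 0.533 in Late muscle. GluRIIA was at -5.05 ± 0.723 in CD, -6.51 ± 0.527 in Early, -5.36 ± 0.560 in Mid and -5.01 ± 0.470 in Late muscle. For all 7 members the 4 Late libraries lay above the 4 Early libraries on this scale, with differences from 0.98 (GluRIIC) to 2.67 (dlg1). Late against CD, the 5 subunits overlapped, with differences from 0.04 (GluRIIA, -0.08 when the sarcomere median was used) to 0.83 (GluRIIB). Only dlg1 (1.78) and Nlg1 (1.14) lay fully above CD at Late on this scale. These values are descriptions without a test.

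**Figure D4:**
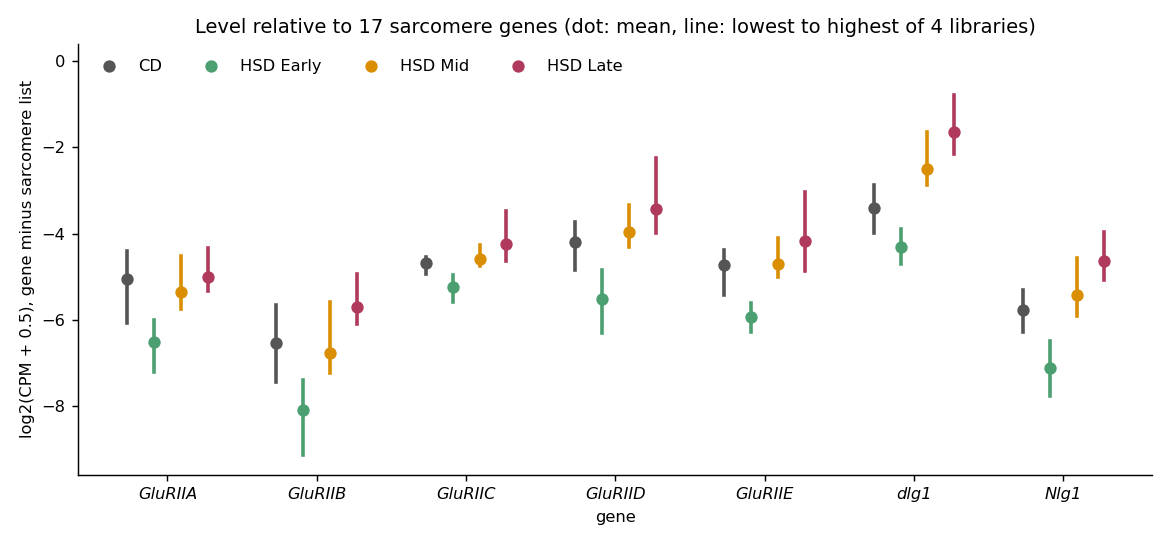
Level of each of the 7 genes on the x axis relative to the mean of 17 sarcomere genes in the same library, as a difference in log2(CPM + 0.5) on the y axis. Dots are means and lines run from the lowest to the highest of 4 libraries. For every gene the Late line lies above the Early line, and for dlg1 and Nlg1 it also lies above the CD line.

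Other genes of the muscle side of the synapse changed in both directions. Of 40 genes listed, 37 matched a counted identifier and were tested. No counted identifier matched Neto, Pak or nos, so their levels are not known here. At Early 3 rose and 1 fell, at Mid 4 rose and 1 fell, at Late 9 rose and 4 fell, and from Early to Late 6 rose and 4 fell. Over all genes, 9.14%, 6.32%, 21.7% and 20.2% passed in either direction in the same order. Whether the listed genes passed more often than other genes was not tested. The median log2 fold change of these 37 genes was 0.03, 0.35, 0.25 and 0.19 in the same order. The gene metro, which encodes a guanylate kinase scaffold that joins Dlg1 at the synapse, rose at Early from 26.5 ± 3.01 to 47.5 ± 9.66 CPM (SD, n = 4, log2 fold change 0.84, edgeR adjusted p = 0.0122). It rose also at Mid (0.77, edgeR adjusted p = 0.0245), and fell from Early to Late (-0.67, edgeR adjusted p = 0.0154). Its partner veli fell against CD at Mid (-0.57, edgeR adjusted p = 0.0416) and at Late (-0.61, edgeR adjusted p = 0.0113), from 30.6 ± 5.52 to 20.1 ± 1.67 CPM. CaMKII, the calcium-dependent kinase that phosphorylates Dlg1, fell at Late from 286 ± 48.9 to 169 ± 25.6 CPM (log2 fold change -0.76, edgeR adjusted p = 0.00219).

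Genes that rose included scrib, a polarity scaffold, from 123 ± 40.9 CPM in CD to 235 ± 59.2 at Late (SD, n = 4, log2 fold change 0.94, edgeR adjusted p = 0.0197). Its linker to Dlg1, gukh, rose from 21.1 ± 6.83 CPM at Early to 43.4 ± 8.01 at Late (1.04, edgeR adjusted p = 0.0188). The dystrobrevin gene Dyb rose against CD at Early (1.07, edgeR adjusted p = 0.0392), Mid (1.11, edgeR adjusted p = 0.0427) and Late (1.24, edgeR adjusted p = 0.0095). The ubiquitin ligase gene mib1 rose at Late against CD (1.07, edgeR adjusted p = 0.00136), and the teneurin gene Ten-m rose from Early to Late (1.20, edgeR adjusted p = 0.003). The adducin gene hts rose at Early (0.78, edgeR adjusted p = 0.0396), where the translational repressor gene brat fell (-1.04, edgeR adjusted p = 0.043). The calcium-activated potassium channel gene slo fell at Late against CD (-1.24, edgeR adjusted p = 0.0127), and Sh, which encodes a voltage-gated potassium channel, fell from Early to Late (-1.01, edgeR adjusted p = 0.00974). Several of these genes are also used in epidermis and neurons, and the part of those tissues was not tested.

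Apart from CG11155, the other glutamate receptors were scarcely present. All 10 such genes were counted, and 8 passed the filter. Against CD 0 passed edgeR's test at any stage, and 1, 0 and 1 passed with DESeq2 at Early, Mid and Late, as many as had an unadjusted p under 0.05 with edgeR. The exception in abundance was CG11155, annotated as a kainate-type subunit, which was at 118 ± 21.9 CPM (SD, n = 4) in CD. CG11155 fell from 146 ± 18.6 CPM at Early to 102 ± 21.6 at Late (SD, n = 4, log2 fold change -0.52, edgeR adjusted p = 0.0412), and every Late value was under every Early value.

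The genes whose pattern over the 16 libraries was most like that of the subunits were sought among 6850 genes with a mean of at least 10 CPM, by Pearson correlation of log2(CPM + 0.5) with the mean standardised level of the 5 subunits. Among the most alike were Oda (r = 0.93), Cyp12a5 (0.928), Nipsnap (0.917) and MICU3 (0.912). Nipsnap was at 168 ± 26.7 CPM (SD, n = 4) in CD, 248 ± 50.1 in Early, 141 ± 26.1 in Mid and 78.8 ± 18.9 in Late muscle. Among the subunits themselves, the correlation with that mean, of which each is a part, was 0.949 for GluRIIA and 0.73 for GluRIIB.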

How the data were processed

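RNA was taken from pooled dissected body-wall muscle, and the authors made stranded, paired-end mRNA libraries. They aligned reads, raw or trimmed with Trim Galore, to dm3 with TopHat2 (version 2.0.11 in the submitters' processing notes). Which of these libraries were trimmed is not stated. They deposited raw featureCounts counts per gene, without normalization. The strand setting is not given in the sources used here. Symbols and exonic lengths are those of dm6 (Ensembl), a later build than the counts use, and no positions are printed.

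In R 4.3.3, edgeR 4.0.16 removed low counts (filterByExpr, minimum count 10, minimum total 15), scaled 16 libraries with TMM and fitted 1 quasi-likelihood model to the 4 conditions. P-values were Benjamini-Hochberg adjusted over 11607 genes. The GluRIIA to GluRIIB ratio used counts plus 0.5 and exact permutation (scipy 1.17.1). The steps were tested on simulated counts. The SE of an edgeR fold change was its absolute log2 value over the square root of the test's F statistic. Intervals of fold changes are at 95%, were built from that SE, and cover the spread between libraries. No library was a copy of another (lowest chi-square per degree of freedom 64.6 over 24 pairs).

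Members and lists were chosen with earlier results of these data known. Named were the 7 members, up to 3 genes of the synapse and glutamate receptor lists that rose and 3 that fell per comparison by smallest adjusted p, and the 5 genes most like the subunits, of which 1 is not reported here. The 163 symbols of the lists gave 161 entries once repeats of the same gene were dropped, and 148 of these 161 matched a counted gene. Alternatives were other size factors (DESeq2 or upper-quartile), the filter left out or set to a mean of 10 CPM, the fit without the 20 most counted genes, the Wald test of DESeq2 1.42.0, fits to 8 libraries, a replicate block, and leaving out single libraries.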

Additional observations from a re-analysis of the deposited data

Results flagged for a closer look

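Of 32 groups of 4 libraries searched (the 7 genes and the GluRIIA to GluRIIB ratio in each condition), 1 had a library apart from the others. GluRIIB in Early 1 was at 11.4 CPM, against 14.4 to 14.7 CPM in the other Early libraries. Chance sets a library apart in about 1 in 20 groups.

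The differences from CD at Late and at Early differed past the threshold for 4 of the 5 subunits. Over all genes, 20.2% passed in that comparison (10.1% in the lower direction). As both are taken against the same CD libraries, CD cancels, and the values are those of the comparison of Late with Early given above, with no further test. Late and Early share the diet and differ in age. The log2 difference was -1.38 for GluRIIA, -1.92 for GluRIIC, -0.76 for GluRIID and -1.12 for GluRIIE. The call of GluRIID was lost under 5 of 24 settings. The difference did not pass for GluRIIB, dlg1 and Nlg1.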

How the results depend on the processing

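Against CD, the number of members called was 1 at Early (2 with the DESeq2 Wald test, 0 in the 8-library fit, 0 to 1 without single libraries) and 0 at Mid (1 with upper-quartile normalization, without the filter or without the 20 genes with the most counts, 2 with a minimum mean of 10 CPM or with DESeq2, 0 to 1 without single libraries). At Late it was 3 (5 with upper-quartile normalization, with a minimum mean of 10 CPM or with DESeq2, 2 to 4 without single libraries), and for Late against Early 4 (3 to 5 under all settings). Over all genes, 1061 passed at Early (1895 with DESeq2, 404 in the 8-library fit, 278 to 1122 without single libraries) and 733 at Mid (1781 with DESeq2, 442 in the 8-library fit, 161 to 1087 without single libraries). At Late 2521 passed (1963 to 3341 under the other settings, 1549 to 2704 without single libraries). From Early to Late 2343 passed (2054 to 3102 under the other settings, 1381 to 2644 without single libraries). Libraries with the same replicate number were not more alike on average (mean r 0.0105 over 24 pairs, against -0.0024 over 72 others). Single pairs with the same number ran from -0.787 to 0.716, so whether a number marks a shared culture or day cannot be told from this. With the replicate number as a block, 1, 0, 4 and 4 members were called in the 4 comparisons, and 486 genes over all genes at Mid.

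Small differences turned sign. GluRIIA at Early, 0.04, was -0.01 with DESeq2 size factors (-0.006) or DESeq2 (-0.007), -0.05 with upper-quartile normalization (-0.054) or a minimum mean of 10 CPM (-0.047), and -0.086 to 0.094 without single libraries. GluRIID at Mid, 0.06, was -0.053 with upper-quartile normalization, -0.030 with a minimum mean of 10 CPM, and -0.115 to 0.218 without single libraries. Without single libraries the range at Early was -0.198 to 0.084 for GluRIIB, -0.079 to 0.245 for GluRIID and -0.068 to 0.306 for Nlg1. At Mid it was -0.239 to 0.146 for GluRIIC, -0.298 to 0.020 for GluRIIE and -0.018 to 0.283 for Nlg1. The difference in log2 GluRIIA to GluRIIB ratio was -0.010 to 0.204 at Early, -0.138 to 0.073 at Mid, -0.876 to -0.688 at Late and -0.96 to -0.78 for Late against Early. With 3 libraries against 4 its exact p cannot go below 0.0571. Upper-quartile normalization moved the median log2 fold change of all genes at Late from -0.08 to -0.25, and the share of calls that were higher from 64.5% to 47.3%, against 54.8% with DESeq2 size factors. The causes were not tested.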
